A study of Mus musculus with 2 samples.

Results

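Dividing macrophages were described among CD45+ cells sorted from subcutaneous MC38 tumours of mice, as barcodes that held C1q RNA together with RNA of 4 genes of chromosome separation. A barcode was a member when its summed UMIs (unique molecular identifiers, here counted RNA molecules) of Mki67, Top2a, Ube2c and Cenpf reached 5. It also needed at least 500 UMIs, at least 200 detected genes, at most 10% mitochondrial UMIs, at least 10 UMIs over C1qa, C1qb and C1qc, none of Cd3d, Cd3e and Cd3g, and at most 2 of Tm4sf1. These limits found 1862 of 19261 barcodes, 1132 of 9734 in UEIS KI and 730 of 9527 in UEIS LSL. They were set against 7403 barcodes, called zero barcodes here, that passed the other limits and had 0 UMIs of the 4 genes, 3595 in UEIS KI and 3808 in UEIS LSL. Another 2467 barcodes had 1 to 4 UMIs of the 4 genes and completed the 11732 macrophage barcodes.

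Both groups were C57BL/6 mice carrying tumours of MC38, a mouse colon adenocarcinoma line, and the tumours were digested with enzymes before the sort. UEIS KI and UEIS LSL are the submitters' names, and the series title calls UEIS a micropeptide. The labels expand neither KI nor LSL, name no promoter, Cre line or age, and do not say whether mice were pooled. There was 1 library for each group, so no difference between UEIS KI and UEIS LSL had a replicate check and none was tested. Intervals are 95% intervals of counting error only.

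A dividing cell copies its DNA in S phase and separates the copies in mitosis. Genes of replication are mostly driven by E2F factors, and genes of mitosis by MuvB complexes with B-Myb and FOXM1, which act through CHR and CCAAT promoter elements. Tumour macrophages come largely from monocytes, and mature macrophages can divide in place, mainly under Csf1.

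The 4 genes that chose the members have different tasks. Ube2c is the ubiquitin-conjugating partner of the anaphase-promoting complex, Top2a untangles DNA, Mki67 coats mitotic chromosomes and Cenpf binds kinetochores. Their promoters are shown because the members were found through these genes, as the 250 bases before the RefSeq start (GRCm38.p6), 5′ to 3′ on the strand of the gene. They lie at chr2:164769679-164769928 on the plus strand for Ube2c, and on the minus strand at chr11:99024190-99024439 for Top2a, chr7:135716380-135716629 for Mki67 and chr1:189688087-189688336 for Cenpf. Capitals mark the core of the CHR element (TTTGAA) and the CCAAT box, each searched on both strands.
Ube2c: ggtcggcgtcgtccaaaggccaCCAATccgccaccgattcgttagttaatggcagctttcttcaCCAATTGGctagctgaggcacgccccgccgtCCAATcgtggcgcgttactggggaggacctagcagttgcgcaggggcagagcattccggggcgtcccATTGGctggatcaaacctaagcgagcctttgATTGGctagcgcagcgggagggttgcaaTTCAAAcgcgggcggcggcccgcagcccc
Top2a: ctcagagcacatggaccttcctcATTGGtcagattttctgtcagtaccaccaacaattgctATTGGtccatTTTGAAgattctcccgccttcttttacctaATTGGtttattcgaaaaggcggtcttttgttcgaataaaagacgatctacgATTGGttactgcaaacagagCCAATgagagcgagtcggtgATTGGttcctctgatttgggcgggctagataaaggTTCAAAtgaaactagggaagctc
Mki67: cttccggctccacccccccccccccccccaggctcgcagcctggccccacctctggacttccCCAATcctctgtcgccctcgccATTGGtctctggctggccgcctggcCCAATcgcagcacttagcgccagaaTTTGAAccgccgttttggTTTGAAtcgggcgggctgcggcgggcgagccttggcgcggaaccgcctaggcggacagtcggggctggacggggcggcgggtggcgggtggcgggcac
Cenpf: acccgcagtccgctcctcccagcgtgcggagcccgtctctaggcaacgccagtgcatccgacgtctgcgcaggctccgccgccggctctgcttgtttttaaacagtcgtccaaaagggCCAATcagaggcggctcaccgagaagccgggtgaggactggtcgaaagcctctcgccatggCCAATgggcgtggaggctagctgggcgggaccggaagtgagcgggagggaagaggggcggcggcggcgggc

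The Ube2c window held 6 CCAAT boxes, of which a pair on opposite strands overlapped, and 1 CHR core. The Top2a window held 6 boxes and 2 cores, the Mki67 window 3 and 2, and the Cenpf window 2 and 0. Both motifs were present in 16 of 58 G2 and mitosis genes with a RefSeq window (27.6%), in 5 of 42 replication genes (11.9%) and in 6.45% of all 27025 windows. The E2F-type motif GCGGGAA was in 0 of the G2 and mitosis windows, in 13 of the replication windows and in 4.38% of all windows. These are matches of letters and not measured binding.

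Macrophage markers that the limits did not use were present. All 20 macrophage identity genes were detected in the dividing barcodes of both libraries, and every dividing barcode held 5 or more UMIs of them. Their summed level, in CPM (UMIs per 1000000 UMIs of a group of barcodes), was 19459 CPM in dividing against 26902 CPM in zero barcodes of UEIS KI, and 22452 against 29253 CPM in UEIS LSL. Ptprc, the gene of CD45, reached 174 CPM in UEIS KI and 192 CPM in UEIS LSL in dividing barcodes. The keratins Krt8, Krt18, Krt19 and Krt20, which mark epithelial tumour cells, were at 0 UMIs in the dividing barcodes of both libraries. Krt8 and Krt20 were also at 0 in the zero barcodes of both, so their absence does not set the groups apart. Of the 22 tumour and epithelial genes, 8 in UEIS KI and 11 in UEIS LSL were at 0 in dividing barcodes. In UEIS KI 523 and in UEIS LSL 333 dividing barcodes held 5 or more UMIs of that list, mostly Anxa3.

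Markers of other cell types were summed over the dividing barcodes. T cell genes summed to 28.5 CPM in UEIS KI and 38.1 CPM in UEIS LSL, mostly Il7r, with Cd8a and Themis at 0 in UEIS KI. NK cell genes summed to 13.4 CPM in UEIS KI and 12.95 CPM in UEIS LSL, B and plasma cell genes to 38.2 CPM in UEIS KI and 62.8 CPM in UEIS LSL, and endothelial genes to 24.1 CPM in UEIS KI and 32.1 CPM in UEIS LSL. Dendritic cell genes summed to 206 CPM in UEIS KI and 268 CPM in UEIS LSL, mostly Bst2, which interferon induces in many cells, and tumour and epithelial genes to 269 CPM in UEIS KI and 288 CPM in UEIS LSL, mostly Anxa3. Mast cell genes summed to 0.236 CPM in UEIS KI and 0.474 CPM in UEIS LSL and erythroid genes to 2.08 CPM in UEIS KI and 0.869 CPM in UEIS LSL. Neutrophil genes summed to 233 CPM in UEIS KI and 91.4 CPM in UEIS LSL in dividing barcodes, against 364 CPM in UEIS KI and 77.9 CPM in UEIS LSL in zero barcodes (493 and 114 CPM weighted by depth, which turns the direction in UEIS LSL). Fibroblast genes summed to 166 CPM in UEIS KI and 511 CPM in UEIS LSL in dividing barcodes, against 74.4 CPM in UEIS KI and 460.3 CPM in UEIS LSL in zero barcodes. Weighted by depth, zero barcodes held 119.8 CPM in UEIS KI and 2441 CPM in UEIS LSL, which turns the direction in UEIS LSL. Only 7 members in UEIS KI and 15 in UEIS LSL carried 5 or more fibroblast UMIs, and in UEIS KI the level came mainly from barcodes with 50 or more UMIs of the 4 genes.

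The libraries held 99404988 UMIs in UEIS KI and 92764697 in UEIS LSL. Dividing barcodes were deeper, with medians of 17405.5 UMIs in UEIS KI and 16004 in UEIS LSL, against 8566 and 8427 in zero barcodes. The doublet score of Scrublet called 16.5% of dividing barcodes in UEIS KI and 17.9% in UEIS LSL, against 6.51% and 6.91% of zero barcodes. Ratios are also given with zero barcodes weighted to the depth of the dividing ones. There were 34 barcode sequences in both libraries, carried by 1 member in UEIS KI and 3 in UEIS LSL.

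The 4 selecting genes were mostly found together. All 4 were detected in 61.4% of members in UEIS KI and 56.0% in UEIS LSL, and 1.06% and 1.10% were members through 1 gene alone. Ube2c reached 665 CPM in UEIS KI and 495 CPM in UEIS LSL, Top2a 376 CPM in UEIS KI and 392 CPM in UEIS LSL, Mki67 230.2 CPM in UEIS KI and 203 CPM in UEIS LSL and Cenpf 174 CPM in UEIS KI and 126 CPM in UEIS LSL in members, which are the values that chose them. Just inside the limit, 76 barcodes in UEIS KI and 59 in UEIS LSL had a sum of exactly 5, and just outside it 92 and 80 had a sum of 4. Neutrophil-like barcodes, with 20 or more UMIs of S100a8 and S100a9 and under 10 of C1q, were read for background. Of these 1 of 94 in UEIS KI (median 1549 UMIs) and 0 of 23 in UEIS LSL (median 1180 UMIs) reached 5. The 0 of 23 allows a share of up to 14.8% (Clopper-Pearson). A sum of 5 is hard to reach at such depth, so these shares cannot give the background at macrophage depth. The 4 genes summed to 118 CPM there in UEIS KI and 20.1 CPM in UEIS LSL. In macrophage barcodes with 2000 to 4000 UMIs they summed to 112 CPM in UEIS KI and 119 CPM in UEIS LSL, and in all macrophage barcodes to 461 and 286 CPM.

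Dividing barcodes made up 18.5% of 6114 macrophage barcodes in UEIS KI (17.6 to 19.5%, Clopper-Pearson) and 12.99% of 5618 in UEIS LSL (12.1 to 13.9%). The share was 1.43-fold higher in UEIS KI (log2 ratio 0.51, 0.39 to 0.63). With every barcode thinned to 5000 UMIs, and 860 shallower ones in UEIS KI and 752 in UEIS LSL left out, 2 or more UMIs of the 4 genes remained in 22.1% of 5254 in UEIS KI and 15.8% of 4866 in UEIS LSL (log2 ratio 0.48). In barcodes with 10000 to 20000 UMIs the log2 ratio was 0.24, and with the same mix of depth bins in both libraries it was 0.24. Depth and the share moved together: with 8000 to 16000 UMIs 14.1% in UEIS KI and 11.7% in UEIS LSL were dividing, and with 16000 to 32000 UMIs 48.3% in UEIS KI and 39.6% in UEIS LSL. With 2000 to 4000 UMIs the order was the other way, at 8 of 390 in UEIS KI and 9 of 331 in UEIS LSL. At 32000 or more UMIs the shares were close, with 86 of 104 in UEIS KI and 40 of 49 in UEIS LSL (log2 ratio 0.02, -0.21 to 0.25). Among barcodes under the C1q limit and without Cd3 UMIs, 5 or more UMIs of the 4 genes were found in 8.12% of 2979 in UEIS KI and 5.94% of 3198 in UEIS LSL. With 1 library each, genotype and preparation cannot be told apart.

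Within the members, RNA of replication and RNA of mitosis took different shares. The S share was the UMIs of 57 replication genes over those plus 59 G2 and mitosis genes, without the 4 selecting genes. The full G2 and mitosis list has 73 genes. In members the 59 genes summed to 6437 CPM in UEIS KI and 5642 CPM in UEIS LSL, against 14286 and 13787 CPM for the full list. The ranges therefore depend on which genes were summed. It was under 1/3 in 596 members in UEIS KI (52.65%, 49.7 to 55.6%) and 308 members in UEIS LSL (42.2%, 38.6 to 45.9%). It was between 1/3 and 2/3 in 390 members in UEIS KI (34.5%, 31.7 to 37.3%) and 315 members in UEIS LSL (43.1%, 39.5 to 46.8%), and over 2/3 in 146 members in UEIS KI (12.9%, 11 to 14.99%) and 107 members in UEIS LSL (14.7%, 12.2 to 17.4%). These are ranges of a score and not phases, and 275 members in UEIS KI and 217 in UEIS LSL lay near a limit. Members with a low S share were the largest range in UEIS KI, and in UEIS LSL the intervals of the low and middle ranges overlapped. Under 1/3 the median sum of the 4 selecting genes was 32 UMIs in UEIS KI and 25.5 in UEIS LSL. Over 2/3 it was 7 in both. The limit of 5 on that sum bears on how many barcodes each range holds. The order of the ranges is therefore not read as a result about the cells.

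Single genes show what the ranges hold, although most belong to the lists that define the score. Cyclin B1 (Ccnb1), which starts mitosis, stood at 234 CPM in UEIS KI and 199 CPM in UEIS LSL under 1/3, and at 28.7 CPM in UEIS KI and 22.6 CPM in UEIS LSL over 2/3. The mitotic kinase gene Plk1 stood at 155 CPM in UEIS KI and 130 CPM in UEIS LSL under 1/3, and at 14.7 CPM in UEIS KI and 15.2 CPM in UEIS LSL over 2/3. Cyclin E2 (Ccne2), of entry into S phase, ran the other way, with 1.57 CPM in UEIS KI and 2.32 CPM in UEIS LSL under 1/3 and 97.2 CPM in UEIS KI and 92.0 CPM in UEIS LSL over 2/3. Mcm5, of the replicative helicase, stood at 47.1 CPM in UEIS KI and 37.9 CPM in UEIS LSL under 1/3 and 209.5 CPM in UEIS KI and 260.1 CPM in UEIS LSL over 2/3. Histone genes were higher in the ranges up to 2/3 (1506 and 1472 CPM in UEIS KI, 1295 and 1448 CPM in UEIS LSL) than over 2/3 (851 and 775 CPM). Histone levels here are only of RNA that 3' sequencing captured. How much histone RNA that method misses was not tested. Ube2c, a selecting gene, stood at 1037 CPM in UEIS KI and 852 CPM in UEIS LSL under 1/3 and 76.0 CPM in UEIS KI and 61.5 CPM in UEIS LSL over 2/3, and the median sum of the 4 genes over 2/3 was 7 UMIs in both libraries, near the limit of 5.

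**Figure D1:**
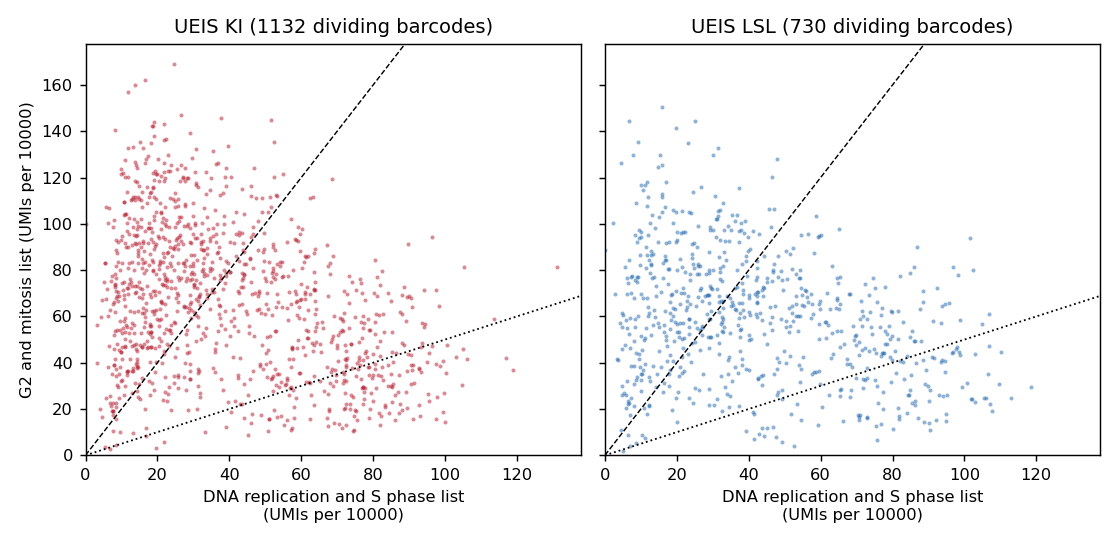
Each point is 1 dividing barcode, UEIS KI left and UEIS LSL right. Axes are UMIs per 10000 of the replication list (x) and of the 59 summed G2 and mitosis genes (y). Dashed and dotted lines are S shares of 1/3 and 2/3, and 596 members in UEIS KI and 308 in UEIS LSL lie on the mitosis side of the dashed line.

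Replication RNA was highest in barcodes with 5 to 19 UMIs of the 4 genes. The replication list was highest in barcodes with 10 to 19 UMIs of the 4 genes in UEIS KI, at 5242 CPM, and with 5 to 9 in UEIS LSL, at 5304 CPM. With 50 or more UMIs it stood at 2445 CPM in UEIS KI and 2148 CPM in UEIS LSL. Histone RNA captured by 3' sequencing was highest with 20 to 49 UMIs, at 1716 CPM in UEIS KI and 1620 CPM in UEIS LSL. Barcodes with 3 to 4 UMIs, outside the limit, held 3078 CPM of the replication list in UEIS KI and 3792 CPM in UEIS LSL, against 945 and 1138 CPM in zero barcodes.

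**Figure D2:**
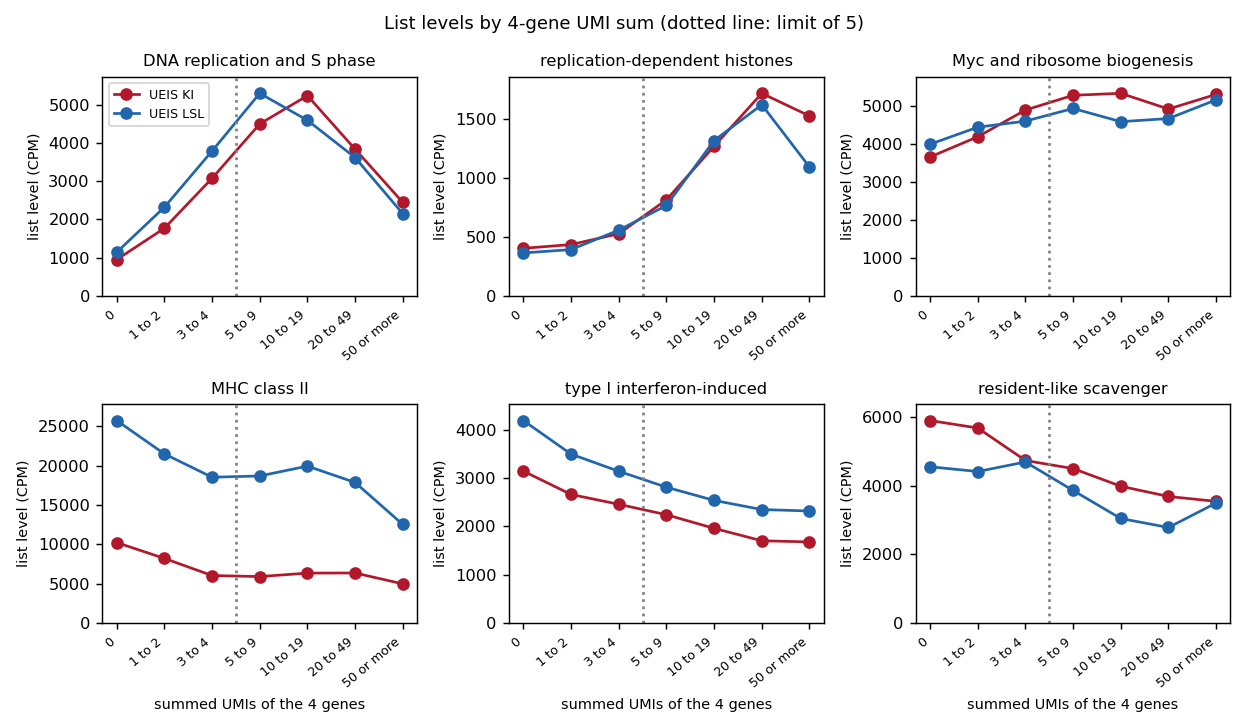
Summed CPM of 6 gene lists (y axes, from 0) in macrophage barcodes grouped by UMIs of the 4 genes (x axes), UEIS KI in red and UEIS LSL in blue, with a dotted line at the limit of 5. Replication RNA is highest at 5 to 19 UMIs and captured histone RNA at 20 to 49. The MHC class II and type I interferon lists are highest at 0 in both libraries.

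Dividing and zero barcodes were compared gene by gene within each library, as a description. A gene was called when its CPM differed by 1.5-fold or more with the interval of the ratio on that side of 1, among genes with 50 or more UMIs. In UEIS KI 14.3% of 12059 genes were called higher and 8.57% lower in dividing barcodes, and in UEIS LSL 13.2% of 11832 higher and 5.23% lower. The median log2 ratio of all genes was 0.04 in UEIS KI and 0.07 in UEIS LSL.

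Cell cycle lists stood highest. Of replication genes, 56 were called higher and 0 lower of 57 in UEIS KI, with a median log2 ratio of 2.17 (1.88 with zero barcodes weighted by depth), and 55 higher and 0 lower of 57 in UEIS LSL, with a median of 1.86 (1.59 weighted). Of G2 and mitosis genes, 69 of 70 were called higher in UEIS KI and 69 of 70 in UEIS LSL, with medians of 4.84 and 4.63. Pttg1, the gene of securin, the inhibitor of separase, was not called, at 40.9 CPM in dividing against 39.4 CPM in zero barcodes of UEIS KI, and 32.1 against 36.1 CPM in UEIS LSL. Of histone genes, 26 of 30 were called higher in UEIS KI and 26 of 29 in UEIS LSL, although near-identical histone copies can share reads. Nusap1, a spindle microtubule binder, stood at 163 CPM in dividing against 1.39 CPM in zero barcodes of UEIS KI, and 148 against 1.13 CPM in UEIS LSL. Cyclin A2 (Ccna2), of S phase and G2, stood at 302 CPM in dividing against 4.38 CPM in zero barcodes of UEIS KI, and 273 against 2.83 CPM in UEIS LSL. Birc5, of the chromosomal passenger complex, stood at 409 CPM in dividing against 9.43 CPM in zero barcodes of UEIS KI, and 367 against 7.33 CPM in UEIS LSL. Ccnb1, Pbk, Plk1, H2ac24, Prc1, Pclaf and Kif20a completed the first 10 cycle genes, with log2 ratios from 5.48 to 7.12 over both libraries. The weighted log2 ratio of Pbk was 7.64 in UEIS KI, against 6.37 unweighted, and 7.41 in UEIS LSL, against 7.12, and that of Plk1 was 6.995 in UEIS KI, against 6.41 unweighted, and 8.18 in UEIS LSL, against 6.96.

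Regulators of the cycle differed among themselves. Foxm1, a driver of mitotic genes, stood at 42.5 CPM in dividing against 0.998 CPM in zero barcodes of UEIS KI, and 39.0 against 0.722 CPM in UEIS LSL. Mybl2, the gene of B-Myb, stood at 30.0 CPM in dividing against 1.72 CPM in zero barcodes of UEIS KI, and 27.4 against 1.01 CPM in UEIS LSL. The D-type cyclins relay growth factor signals, and Ccnd1 and Ccnd3 were called in neither library, while Ccnd2 stood at 23.4 CPM in dividing against 47.3 CPM in zero barcodes of UEIS KI, and 58.5 against 85.6 CPM in UEIS LSL, a difference called in UEIS KI. Of brakes of the cycle, 4 were called higher and 6 lower of 19 in UEIS KI, with a median log2 ratio of 0.05 (-0.01 with zero barcodes weighted by depth), and 2 higher and 4 lower of 18 in UEIS LSL, with a median of -0.10 (-0.15 weighted). The Cdk inhibitor gene Cdkn2c stood at 138 CPM in dividing against 14.6 CPM in zero barcodes of UEIS KI, and 117 against 11.1 CPM in UEIS LSL. Its relative Cdkn2d stood at 175 CPM in dividing against 41.1 CPM in zero barcodes of UEIS KI, and 144 against 38.3 CPM in UEIS LSL. Cdkn1a, the p21 gene that p53 induces, was not called, at 326 CPM in dividing against 304 CPM in zero barcodes of UEIS KI, and 326 against 296 CPM in UEIS LSL.

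Most nucleotide synthesis genes were called higher in both libraries. Of nucleotide synthesis genes, 24 were called higher and 0 lower of 32 in UEIS KI, with a median log2 ratio of 0.90 (0.90 with zero barcodes weighted by depth), and 18 higher and 0 lower of 32 in UEIS LSL, with a median of 0.71 (0.64 weighted). Rrm2, of ribonucleotide reductase, stood at 251 CPM in dividing against 6.59 CPM in zero barcodes of UEIS KI, and 258 against 5.601 CPM in UEIS LSL. Mthfd2, of mitochondrial folate metabolism, stood at 100.5 CPM in dividing against 42.5 CPM in zero barcodes of UEIS KI, and 135 against 54.3 CPM in UEIS LSL. Of Myc and ribosome biogenesis genes, 9 were called higher and 1 lower of 30 in UEIS KI, with a median log2 ratio of 0.45 (0.36 with zero barcodes weighted by depth), and 5 higher and 1 lower of 30 in UEIS LSL, with a median of 0.11 (0.08 weighted). The share called higher in UEIS LSL, 16.7%, was near the 13.2% of all genes. Dkc1, of ribosomal RNA pseudouridylation, stood at 46.8 CPM in dividing against 21.8 CPM in zero barcodes of UEIS KI, and 47.2 against 30.6 CPM in UEIS LSL, and Myc itself was not called, at 37.7 CPM in dividing against 30.1 CPM in zero barcodes of UEIS KI, and 41.3 against 43.4 CPM in UEIS LSL. Of oxidative phosphorylation genes, 1 was called higher and 0 lower of 44 in UEIS KI, with a median log2 ratio of 0.24 (0.12 with zero barcodes weighted by depth), and 0 higher and 0 lower of 44 in UEIS LSL, with a median of 0.17 (0.11 weighted).

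Outside the cell cycle genes, 834 of 4946 ranked genes were higher and 532 lower in dividing barcodes of both libraries, with intervals on 1 side of 1 and 1.2-fold or more after depth weighting. Rcc1 (chr4:132331919-132353605, GRCm38), the nucleotide exchange factor of Ran on chromatin, ranked first among those higher, at 59.1 CPM in dividing against 13.3 CPM in zero barcodes of UEIS KI, and 60.8 against 13.4 CPM in UEIS LSL. Rhno1 (chr6:128357000-128362911), of the replication checkpoint, stood at 48.6 CPM in dividing against 12.97 CPM in zero barcodes of UEIS KI, and 47.2 against 12.6 CPM in UEIS LSL. Fzr1, an activator of the anaphase-promoting complex, stood at 86.0 CPM in dividing against 29.6 CPM in zero barcodes of UEIS KI, and 70.2 against 27.6 CPM in UEIS LSL. These genes have cell cycle roles although the cycle lists did not hold them.

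Some others were metabolic or mitochondrial. Psat1 (chr19:15904678-15947337), of serine synthesis, stood at 79.3 CPM in dividing against 21.5 CPM in zero barcodes of UEIS KI, and 70.1 against 25.2 CPM in UEIS LSL. Slc25a10, the mitochondrial dicarboxylate carrier gene, stood at 57.1 CPM in dividing against 14.9 CPM in zero barcodes of UEIS KI, and 54.4 against 15.7 CPM in UEIS LSL. Pck2, the mitochondrial phosphoenolpyruvate carboxykinase gene, stood at 38.7 CPM in dividing against 14.8 CPM in zero barcodes of UEIS KI, and 51.6 against 16.3 CPM in UEIS LSL. Cmc2, Rdm1, Lmf2, Csrp1, Csrp2, Cep57, Ppil1, Nmral1 and Alg8 completed the first 15, with log2 ratios from 1.32 to 2.07 over both libraries. These were not sorted by role, and some may also have cell cycle roles.

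Genes that stood lower included some with secretory, scavenging and hypoxia-linked roles. Ednrb (chr14:103814625-103844402), the endothelin B receptor gene, ranked first, at 16.4 CPM in dividing against 103 CPM in zero barcodes of UEIS KI, and 8.77 against 54.0 CPM in UEIS LSL. Wfdc17, a small secreted protein gene of myeloid cells, stood at 913 CPM in dividing against 3326 CPM in zero barcodes of UEIS KI, and 616 against 2002 CPM in UEIS LSL. Hmox1 (chr8:75093621-75100589), which breaks down haem, stood at 380.1 CPM in dividing against 1030 CPM in zero barcodes of UEIS KI, and 284 against 851 CPM in UEIS LSL. Hilpda, a hypoxia-induced lipid droplet gene, stood at 100.4 CPM in dividing against 260.3 CPM in zero barcodes of UEIS KI, and 79.0 against 211 CPM in UEIS LSL. Mmp12, the macrophage elastase gene, stood at 135 CPM in dividing against 658 CPM in zero barcodes of UEIS KI, and 217 against 495 CPM in UEIS LSL. Ccl8, a monocyte chemokine gene, stood at 137 CPM in dividing against 732 CPM in zero barcodes of UEIS KI, and 206 against 510.2 CPM in UEIS LSL. Weighting zero barcodes by depth moved 5 of the 15 by over 1.5-fold in at least 1 library. The weighted log2 ratio of Ednrb was -1.44 in UEIS KI, against -2.64 unweighted, and -1.44 in UEIS LSL, against -2.62. For Wfdc17 it was -0.96 in UEIS KI, against -1.86 unweighted, and -1.03 in UEIS LSL, against -1.70. For Ccl8 it was -0.81 in UEIS KI, against -2.42 unweighted, and -0.38 in UEIS LSL, against -1.31. For Cd163 it was -0.98 in UEIS KI, against -1.97 unweighted, and -1.14 in UEIS LSL, against -1.61, and for Ltc4s it was -0.85 in UEIS KI, against -1.71 unweighted, and -1.33 in UEIS LSL, against -1.33. Tnfrsf9 (-1.93 in UEIS KI and -1.98 in UEIS LSL), Hmox1 (-1.67 and -1.68) and Hilpda (-1.53 and -1.63) stood lower than Ednrb in both libraries when weighted. Mmp12 (-2.35) and Tcp11l2 (-1.66) did so in UEIS KI alone, and Retnla (-2.90) and Igf1 (-1.72) in UEIS LSL alone. Tnfrsf9, Retnla, Cd163, Ccl6, Ltc4s, Igf1, Irf7, F10 and Tcp11l2 completed the first 15, with log2 ratios from -2.35 to -1.22 over both libraries.

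Type I interferon-induced genes were lower in dividing barcodes of both libraries. Of them, 0 were called higher and 32 lower of 52 in UEIS KI, with a median log2 ratio of -0.73 (-0.53 with zero barcodes weighted by depth), and 0 higher and 36 lower of 55 in UEIS LSL, with a median of -0.74 (-0.69 weighted). Ifitm3, of the antiviral membrane proteins and among the most abundant, stood at 424 CPM in dividing against 978 CPM in zero barcodes of UEIS KI, and 719 against 1351 CPM in UEIS LSL. Slfn5 had the lowest ratio of the list in UEIS KI, at 4.86 CPM in dividing against 21.2 CPM in zero barcodes of UEIS KI, and 9.40 against 35.5 CPM in UEIS LSL. In UEIS LSL Ifit3b, which may share reads with its near copy Ifit3, was lower still, with 6 UMIs in dividing and 153 in zero barcodes. Isg15, a ubiquitin-like antiviral protein, stood at 26.5 CPM in dividing against 53.7 CPM in zero barcodes of UEIS KI, and 48.8 against 124 CPM in UEIS LSL. Ifi27 was not called, at 123.1 CPM in dividing against 112 CPM in zero barcodes of UEIS KI, and 116 against 102 CPM in UEIS LSL.

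Interferon-gamma-induced genes were less uniform. Of them, 1 was called higher and 8 lower of 26 in UEIS KI, with a median log2 ratio of -0.34 (-0.17 with zero barcodes weighted by depth), and 0 higher and 5 lower of 26 in UEIS LSL, with a median of -0.29 (-0.05 weighted). Cxcl10, a T cell chemokine gene, was the gene called higher in UEIS KI, at 144 CPM in dividing against 93.0 CPM in zero barcodes of UEIS KI, and 319.5 against 234 CPM in UEIS LSL. Batf2, a transcription factor gene, had the lowest ratio in UEIS KI, at 1.04 CPM in dividing against 4.29 CPM in zero barcodes of UEIS KI, and 3.63 against 7.42 CPM in UEIS LSL. Cxcl9, a relative of Cxcl10, was not called, at 22.9 CPM in dividing against 25.9 CPM in zero barcodes of UEIS KI, and 147 against 169.7 CPM in UEIS LSL.

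MHC class II genes, which present antigen to CD4 T cells, stood lower at the median in both libraries. Of them, 0 were called higher and 10 lower of 12 in UEIS KI, with a median log2 ratio of -0.79 (-0.84 with zero barcodes weighted by depth), and 0 higher and 2 lower of 13 in UEIS LSL, with a median of -0.47 (-0.40 weighted). H2-Aa, an alpha chain gene, stood at 478 CPM in dividing against 1043 CPM in zero barcodes of UEIS KI, and 2407 against 3407 CPM in UEIS LSL. Cd74, the invariant chain gene and the most abundant, stood at 1985 CPM in dividing against 4331 CPM in zero barcodes of UEIS KI, and 8957 against 13440 CPM in UEIS LSL. Ifi30, a lysosomal reductase gene of the same list, was not called, at 1261 CPM in dividing against 1091 CPM in zero barcodes of UEIS KI, and 1416 against 1264 CPM in UEIS LSL. Of MHC class I genes, 1 was called higher and 1 lower of 22 in UEIS KI, with a median log2 ratio of -0.08 (-0.06 with zero barcodes weighted by depth), and 2 higher and 1 lower of 22 in UEIS LSL, with a median of -0.15 (-0.08 weighted).

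Resident-like scavenger genes were lower, by less after depth weighting. Of them, 0 were called higher and 13 lower of 18 in UEIS KI, with a median log2 ratio of -1.32 (-0.58 with zero barcodes weighted by depth), and 0 higher and 11 lower of 18 in UEIS LSL, with a median of -0.73 (-0.37 weighted). Lyve1, a hyaluronan receptor gene, stood at 76.9 CPM in dividing against 236 CPM in zero barcodes of UEIS KI, and 24.4 against 53.4 CPM in UEIS LSL, and its weighted log2 ratio was -0.72 in UEIS KI, against -1.62 unweighted, and -0.56 in UEIS LSL, against -1.13. Folr2, a folate receptor gene, stood at 192 CPM in dividing against 348 CPM in zero barcodes of UEIS KI, and 94.1 against 159.8 CPM in UEIS LSL. Mrc1, the mannose receptor gene, was not called, at 301 CPM in dividing against 419 CPM in zero barcodes of UEIS KI, and 308 against 347 CPM in UEIS LSL, nor was the platelet factor gene Pf4, at 1987 CPM in dividing against 2231 CPM in zero barcodes of UEIS KI, and 1432 against 1851 CPM in UEIS LSL.

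Hypoxia and tumour macrophage genes were lower in part. Of glycolysis and hypoxia genes, 0 were called higher and 11 lower of 28 in UEIS KI, with a median log2 ratio of -0.44 (-0.50 with zero barcodes weighted by depth), and 0 higher and 11 lower of 28 in UEIS LSL, with a median of -0.40 (-0.51 weighted). Vegfa, an angiogenic factor gene, stood at 36.9 CPM in dividing against 80.5 CPM in zero barcodes of UEIS KI, and 35.3 against 77.5 CPM in UEIS LSL. Gapdh, of glycolysis, was not called, at 4685 CPM in dividing against 5371 CPM in zero barcodes of UEIS KI, and 4044 against 4680 CPM in UEIS LSL. Of the list named for Spp1 and arginase, 0 were called higher and 10 lower of 24 in UEIS KI, with a median log2 ratio of -0.46 (-0.51 with zero barcodes weighted by depth), and 0 higher and 11 lower of 24 in UEIS LSL, with a median of -0.57 (-0.59 weighted). Arg1, arginase 1, stood at 688 CPM in dividing against 1337 CPM in zero barcodes of UEIS KI, and 517 against 983 CPM in UEIS LSL, whereas Spp1, the osteopontin gene, was not called, at 7543 CPM in dividing against 8156 CPM in zero barcodes of UEIS KI, and 2338 against 2691 CPM in UEIS LSL.

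No regulator of macrophage renewal was called higher. Of them, 0 were called higher and 5 lower of 13 in UEIS KI, with a median log2 ratio of -0.48 (-0.29 with zero barcodes weighted by depth), and 0 higher and 2 lower of 13 in UEIS LSL, with a median of -0.33 (-0.12 weighted). Csf1r, the Csf1 receptor gene, was not called, at 502 CPM in dividing against 596 CPM in zero barcodes of UEIS KI, and 606 against 649.5 CPM in UEIS LSL. Of lysosome and lipid genes, 0 were called higher and 4 lower of 37 in UEIS KI, with a median log2 ratio of -0.28 (-0.31 with zero barcodes weighted by depth), and 2 higher and 5 lower of 37 in UEIS LSL, with a median of -0.27 (-0.25 weighted), and the 10.8% called lower in UEIS KI was near the 8.57% of all genes. Dissociation stress genes, which digestion can induce, summed to 14581 CPM in dividing against 19176 CPM in zero barcodes of UEIS KI, and 19471 against 21278 CPM in UEIS LSL, and their part in these ratios was not tested.

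**Figure D3:**
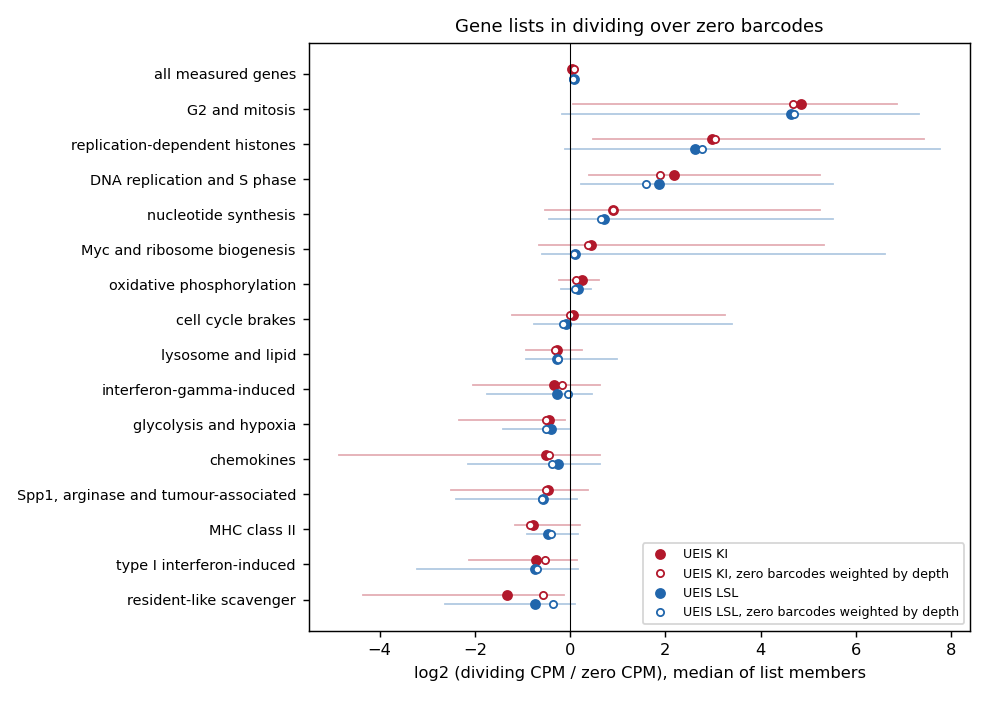
Median log2 ratio of dividing over zero CPM (x axis) for gene lists (rows), UEIS KI in red above UEIS LSL in blue; thin lines span the lowest to the highest member and open circles are medians with zero barcodes weighted by depth. The G2 and mitosis, histone and replication lists lie at 1.86 or more, and the MHC class II, type I interferon and resident-like lists at -0.47 or less unweighted.

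The share of dividing barcodes was also read within ranges of macrophage states, in barcodes thinned to 5000 UMIs. A state is a range of UMIs and states overlap. In the Mmp12 range (5 or more UMIs) 8.35% of 527 in UEIS KI (6.13 to 11.1%) and 7.56% of 463 in UEIS LSL (5.32 to 10.4%) were dividing, against 23.6% in UEIS KI and 16.7% in UEIS LSL outside it. In the interferon range (3 or more UMIs of Isg15, Rsad2, Ifit1, Ifit2 and Ifit3) 13.1% of 137 in UEIS KI (7.98 to 19.97%) and 6.63% of 347 in UEIS LSL (4.25 to 9.78%) were dividing, against 22.3% in UEIS KI and 16.5% in UEIS LSL outside it. In the MHC class II range (100 or more UMIs of H2-Aa, H2-Ab1, H2-Eb1 and Cd74) 13.8% of 521 in UEIS KI (10.97 to 17.1%) and 11.9% of 1853 in UEIS LSL (10.5 to 13.5%) were dividing, against 22.99% in UEIS KI and 18.2% in UEIS LSL outside it.

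The osteoclast range (5 or more UMIs of Acp5 and Ctsk) went the other way, with 32.9% of 143 in UEIS KI (25.2 to 41.2%) and 25% of 56 in UEIS LSL (14.4 to 38.4%) dividing, against 21.8% in UEIS KI and 15.7% in UEIS LSL outside it; its barcodes had medians of 18840 and 17010 UMIs before thinning, against 11380 and 10300 in all thinned barcodes. Outside all 8 ranges 33.4% of 1033 in UEIS KI (30.5 to 36.4%) and 23.2% of 1004 in UEIS LSL (20.6 to 25.9%) were dividing. In the Cxcl9 range the dividing share was 18.6% in UEIS KI and 15.6% in UEIS LSL, against 22.2% in UEIS KI and 15.8% in UEIS LSL outside it. In the Lyve1 and Folr2 range it was 19.8% in UEIS KI and 13.5% in UEIS LSL, against 23.1% in UEIS KI and 16.2% in UEIS LSL outside it. In the monocyte range it was 18.9% in UEIS KI and 14.8% in UEIS LSL, against 23.5% in UEIS KI and 16.5% in UEIS LSL outside it. In the Spp1 range it was 19.3% in UEIS KI and 9.19% in UEIS LSL, against 23.1% in UEIS KI and 16.2% in UEIS LSL outside it. The share was lower inside than outside in 7 of the 8 ranges in both libraries, with overlapping intervals in the Cxcl9 and the Lyve1 and Folr2 range of both libraries and in the monocyte range of UEIS LSL. The share was higher in UEIS KI than in UEIS LSL in each of the 8 ranges and outside all of them. The intervals of the libraries overlapped in the Mmp12, interferon, MHC class II, Cxcl9 and osteoclast ranges.

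**Figure D4:**
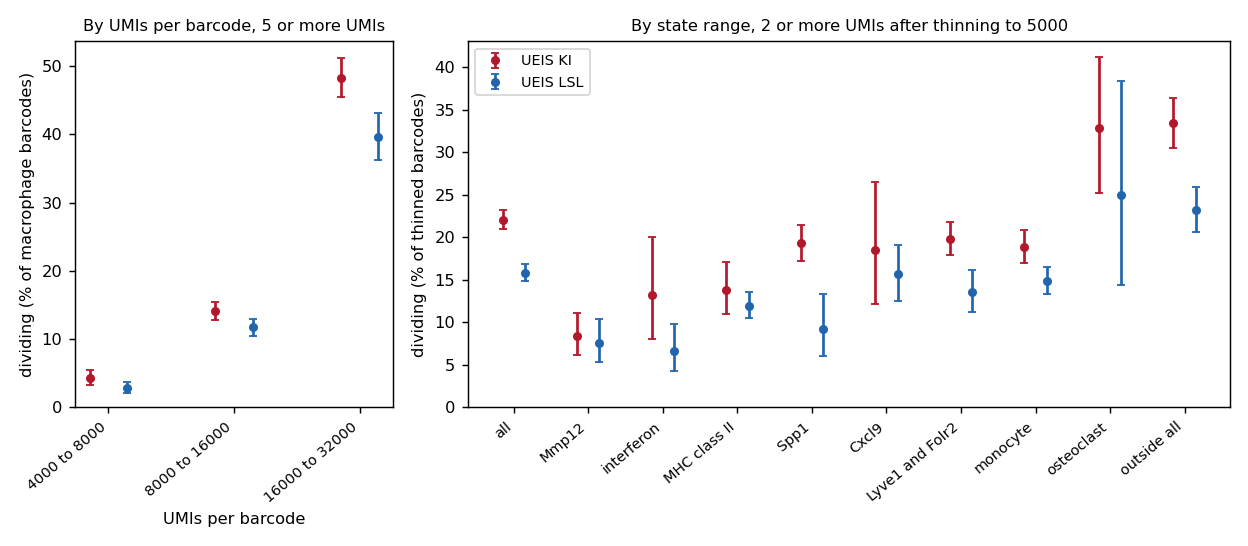
Percent of macrophage barcodes that were dividing (y axes, from 0), by UMIs per barcode (left) and by state range after thinning to 5000 UMIs (right), UEIS KI in red left of UEIS LSL in blue, with Clopper-Pearson 95% intervals. The share is higher in UEIS KI in the 3 depth ranges and all state ranges shown. Intervals of the libraries overlap at 4000 to 8000 and 8000 to 16000 UMIs. Not shown are 2000 to 4000 UMIs, which had the other order, and 32000 or more, where the shares were close. The Mmp12 range is the lowest range in UEIS KI, at 8.35%.

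UEIS KI and UEIS LSL dividing barcodes were then compared with each other. In UEIS KI 3.95% of 11320 genes were called higher and 4.73% lower, and in zero barcodes 5.35% of 12368 higher and 4.34% lower. The median log2 ratio of all genes in dividing barcodes was 0.01. List medians for zero barcodes, here and below, are over the genes measured in both dividing and zero barcodes. Of MHC class II genes, 0 of 12 were called higher and 10 lower in UEIS KI, with a median log2 ratio of -1.82 in dividing barcodes and -1.22 in zero barcodes. Over all 13 MHC class II genes measured in zero barcodes the median there was -1.44. The median difference per gene, dividing minus zero, was -0.42. H2-Eb1, a beta chain gene, stood at 308 CPM in UEIS KI and 1663 CPM in UEIS LSL (log2 ratio -2.43, -2.47 to -2.39), H2-Aa at 478 CPM in UEIS KI and 2407 CPM in UEIS LSL (log2 ratio -2.33), H2-Ab1 at 310.3 CPM in UEIS KI and 1336 CPM in UEIS LSL (log2 ratio -2.10) and Cd74 at 1985 CPM in UEIS KI and 8957 CPM in UEIS LSL (log2 ratio -2.17). Ciita, the switch factor of these genes, stood at 3.96 CPM in UEIS KI and 22.4 CPM in UEIS LSL (log2 ratio -2.50). In zero barcodes the log2 ratio was -1.87 for H2-Eb1 and -1.63 for Cd74. Over all 11188 genes measured in both, the interval of the difference between these ratios, dividing minus zero, lay above 0 for 11.4% and below 0 for 12%. For 10 of 12 genes the ratio was lower in dividing than in zero barcodes beyond the counting interval, and for 1 it was higher.

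Of interferon-gamma-induced genes, 1 of 26 was called higher and 21 lower in UEIS KI, with a median log2 ratio of -1.16 in dividing barcodes and -1.08 in zero barcodes. Cxcl9 (chr5:92321347-92328079) stood at 22.9 CPM in UEIS KI and 147 CPM in UEIS LSL (log2 ratio -2.68, -2.83 to -2.53), and 10 barcodes held 76.5% of its UMIs in UEIS KI and 57.5% in UEIS LSL. Gbp4, a guanylate-binding protein gene, stood at 1.42 CPM in UEIS KI and 10.3 CPM in UEIS LSL (log2 ratio -2.86). Nos2, inducible nitric oxide synthase, was the gene called higher, at 3.07 CPM in UEIS KI and 1.66 CPM in UEIS LSL (log2 ratio 0.89). Of type I interferon-induced genes, 0 of 50 were called higher and 27 lower in UEIS KI, with a median log2 ratio of -0.63 in dividing barcodes and -0.69 in zero barcodes. Isg15 stood at 26.5 CPM in UEIS KI and 48.8 CPM in UEIS LSL (log2 ratio -0.88) and Mx1, an antiviral GTPase gene with the lowest ratio, at 1.18 CPM in UEIS KI and 3.56 CPM in UEIS LSL (log2 ratio -1.59). Without barcodes that held 2 or more UMIs of T, NK, B and neutrophil markers, the median of this list in dividing barcodes was -0.33. Of MHC class I genes, 0 of 22 were called higher and 10 lower in UEIS KI, with a median log2 ratio of -0.54 in dividing barcodes and -0.50 in zero barcodes.

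Other genes lower in UEIS KI were of mixed kinds. Mgl2 (chr11:70130329-70137550), a lectin gene of macrophages and dendritic cells, stood at 32.1 CPM in UEIS KI and 222 CPM in UEIS LSL (log2 ratio -2.79, -2.91 to -2.66). Tmem176b and Tmem176a, paired membrane protein genes, stood at 75.8 CPM in UEIS KI and 306 CPM in UEIS LSL (log2 ratio -2.01) and at 34.5 CPM in UEIS KI and 138 CPM in UEIS LSL (log2 ratio -1.998). Ly6a, a surface protein gene that interferon induces, stood at 37.1 CPM in UEIS KI and 136 CPM in UEIS LSL (log2 ratio -1.87), and H2-DMb1, which loads peptides onto MHC class II, at 101 CPM in UEIS KI and 314 CPM in UEIS LSL (log2 ratio -1.63). The collagen genes Col1a1 and Col1a2 stood at 32.9 CPM in UEIS KI and 101 CPM in UEIS LSL (log2 ratio -1.62) and at 28.7 CPM in UEIS KI and 120.3 CPM in UEIS LSL (log2 ratio -2.07), with 92.5% or more of their UMIs in 10 barcodes of each library. Without barcodes of 5 or more fibroblast UMIs their log2 ratios were -1.03 and -1.14, and without Scrublet calls 0.12 and -0.26. Without barcodes of 5 or more neutrophil UMIs they were -5.16 and -5.49, so their level rested on few barcodes.

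Genes higher in UEIS KI included secreted, scavenger and neutrophil-associated ones. Lyz1 (chr10:117287797-117292868), a lysozyme gene whose neighbour Lyz2 may share reads, stood at 451 CPM in UEIS KI and 21.3 CPM in UEIS LSL (log2 ratio 4.40, 4.23 to 4.58), and 10 barcodes held 77.8% of its UMIs in UEIS LSL. Spp1 (chr5:104435118-104441050) stood at 7543 CPM in UEIS KI and 2338 CPM in UEIS LSL (log2 ratio 1.69, 1.67 to 1.71). Lyve1 stood at 76.9 CPM in UEIS KI and 24.4 CPM in UEIS LSL (log2 ratio 1.66), Fcna, a ficolin gene, at 93.1 CPM in UEIS KI and 30.8 CPM in UEIS LSL (log2 ratio 1.60), and Chil3, a chitinase-like gene, at 65.0 CPM in UEIS KI and 26.9 CPM in UEIS LSL (log2 ratio 1.28). For Lyve1, 10 barcodes held 28.0% of its UMIs in UEIS KI and 61.8% in UEIS LSL. S100a8 and S100a9, abundant neutrophil RNAs, stood at 87.7 CPM in UEIS KI and 11.4 CPM in UEIS LSL (log2 ratio 2.95) and at 72.8 CPM in UEIS KI and 12.7 CPM in UEIS LSL (log2 ratio 2.52), with 70.8% or more of their UMIs in 10 barcodes of each library. Without barcodes of 5 or more neutrophil UMIs the log2 ratio of S100a8 was 1.92 (1.45 to 2.42) and that of S100a9 3.43 (2.01 to 5.35). The neutrophil list that set this limit holds S100a8 itself, so these values cannot show what remains without neutrophil RNA. Pmp22, Serpinb6a, Slc27a1 and Pdpn had log2 ratios from 1.07 to 1.53. The histone gene H2bc4 (chr13:23684199-23692908) stood at 189 CPM in UEIS KI and 78.8 CPM in UEIS LSL (log2 ratio 1.26, 1.16 to 1.36), and at 105 and 77.4 CPM in zero barcodes.

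Few cell cycle genes were called between the libraries. Of replication genes, 0 of 57 were called higher and 0 lower in UEIS KI, with a median log2 ratio of -0.10 in dividing barcodes and -0.29 in zero barcodes. Of G2 and mitosis genes, 1 of 70 was called higher and 0 lower in UEIS KI, with a median log2 ratio of 0.15 in dividing barcodes and 0.08 in zero barcodes, and Cdc25b, a mitosis-starting phosphatase gene, was the gene called, at 66.0 CPM in UEIS KI and 37.6 CPM in UEIS LSL (log2 ratio 0.81). Of histone genes, 3 of 29 were called higher and 0 lower in UEIS KI, with a median log2 ratio of 0.01 in dividing barcodes and -0.11 in zero barcodes. Of resident-like scavenger genes, 8 of 16 were called higher and 1 lower in UEIS KI, with a median log2 ratio of 0.58 in dividing barcodes and 0.92 in zero barcodes. Of the list named for Spp1 and arginase, 7 of 24 were called higher and 2 lower in UEIS KI, with a median log2 ratio of 0.38 in dividing barcodes and 0.32 in zero barcodes.

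For some lists the ratio of UEIS KI over UEIS LSL was not the same in dividing as in zero barcodes. Of 29 Myc and ribosome biogenesis genes, 24 had a higher and 0 a lower ratio of UEIS KI over UEIS LSL in dividing barcodes beyond the counting interval (against 11.4% and 12% of all genes), with medians of 0.10 in dividing and -0.18 in zero barcodes. Nop58, of ribosomal RNA modification, stood at 109 CPM in UEIS KI and 118 CPM in UEIS LSL (log2 ratio -0.12) in dividing barcodes, and at 54.8 and 74.8 CPM in zero barcodes. Of 18 dissociation stress genes, 0 had a higher and 17 a lower ratio, with medians of -0.37 in dividing and -0.14 in zero barcodes. The part of digestion stress in the other differences was not tested.

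**Figure D5:**
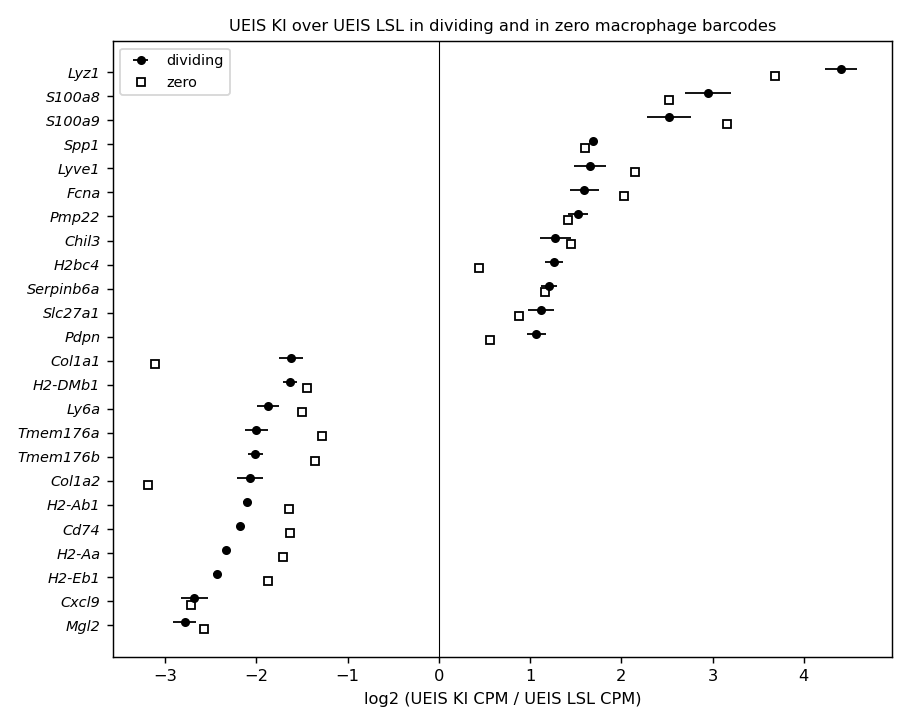
Log2 ratio of UEIS KI over UEIS LSL CPM (x axis) for 24 named genes (rows) in dividing barcodes (filled circles, 95% counting intervals) and zero barcodes (open squares), 1 library for each group. The 12 genes above 0 in dividing barcodes are above 0 in zero barcodes, and the 12 below 0 are below 0.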

How the data were processed

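CD45+ cells of MC38 tumours were profiled by 10x Genomics 3' v3 sequencing, with 1 library for UEIS KI and 1 for UEIS LSL. The deposited files hold raw UMI counts, not normalised. The submitters' processing notes give Cell Ranger 2.1.1 and mm10, and the header line of the files gives version 8.0.1; no annotation version is given in the sources used here. The members, gene lists and limits were chosen with earlier results of these data known.

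UMIs were summed over the barcodes of a group and scaled to CPM (Python 3.11.15, numpy 2.4.6, scipy 1.17.1). Ratios of gene levels carry exact conditional binomial 95% intervals, and shares carry Clopper-Pearson intervals. The ratio of shares carries a delta-method interval, and differences between log2 ratios carry a normal approximation from the counts. The floor is 3 counts. Of 943 list entries 37 were not found, of which 33 were older histone symbols. Named genes outside and inside the cycle lists needed 50 UMIs and a pooled 20 CPM in both libraries, an interval on the same side of 1 in both, and 1.2-fold with depth-weighted zero barcodes, ordered by their weakest bound. Genes named for UEIS KI over UEIS LSL needed 50 CPM. The selecting, C1q, Cd3, Tm4sf1, predicted, mitochondrial, ribosomal protein, haemoglobin, receptor segment and sex-linked genes were not ranked. List members named are those most abundant or with extreme ratios, and known regulators added after their values were seen. Depth weighting used bins of 0.5 on the log2 scale; bins under 20 zero barcodes were joined to the next, and barcodes carrying 5 or more fibroblast or neutrophil UMIs were left out, as alternatives chosen after seeing the data. Scrublet (scanpy 1.11.5) calls were the highest scores, 0.8% per 1000 barcodes, and were kept except in 1 alternative. Thinning drew 5000 UMIs per barcode. Coordinates are GRCm38 matched by gene identifier.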

Additional observations from a re-analysis of the deposited data

How the results depend on the processing

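No paired analysis was possible because each group had 1 library, which also left no replicate to leave out. The log2 ratio of the dividing share stayed above 0 in 16 of 16 alternatives, from 0.24 to 0.59, and was 0.24 with 10000 to 20000 UMIs and 0.24 with 1 mix of depths. Genes called higher in UEIS KI numbered 164 at 2-fold and 223 with 200 or more UMIs, against 447. Genes called lower numbered 344 without barcodes holding T, NK, B and neutrophil markers, 327 after thinning, 350 with 10000 to 20000 UMIs, 225 at 2-fold and 251 with 200 or more UMIs, against 535. The UEIS KI over UEIS LSL median of the type I interferon list was -0.33 without barcodes holding those markers, in a range from -0.65 to -0.33.

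For dividing over zero barcodes with 10000 to 20000 UMIs, medians were -0.50 (MHC class II), -0.49 (type I interferon) and 0.15 (oxidative phosphorylation) in UEIS KI, and -0.56 (MHC class II), -0.35 (lysosome) and 0.11 (oxidative phosphorylation) in UEIS LSL. With depth weighting they were -0.49 (type I interferon) and 0.08203 (oxidative phosphorylation) in UEIS KI, and -0.31 (MHC class II) and 0.11 (oxidative phosphorylation) in UEIS LSL; with sparse bins joined, oxidative phosphorylation was 0.12 in UEIS KI and 0.11 in UEIS LSL, and MHC class II -0.40 in UEIS LSL. Against barcodes with 0 to 4 UMIs, oxidative phosphorylation was 0.18 in UEIS KI and MHC class II -0.42 in UEIS LSL, and without barcodes holding T, NK, B and neutrophil markers MHC class II was -0.75 in UEIS LSL.

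Among list medians, 43 of 505 UEIS KI over UEIS LSL values and 38 of 1284 dividing over zero values had the other sign than reported, among them the cell cycle brakes in UEIS KI with sparse bins joined; 3 and 7 of these were of lists with a reported median of 1.5-fold or more, given next. With 5 of the 4 genes' UMIs per 10000 as a further limit, UEIS KI over UEIS LSL was 0.91 for Col1a1, 0.42 for Col1a2 and 0.41 for the fibroblast list, and Col1a1 was 0.12 without Scrublet calls. The dendritic list was 0.0263 without barcodes holding T, NK, B and neutrophil markers and 0.04695 with 10000 to 20000 UMIs. In UEIS KI the erythroid list was 3.165 in dividing over zero with a 4-gene limit of 3. The fibroblast list there was -1.266 and -1.264 with C1q limits of 5 and 20, -0.42 with Tm4sf1 at 0, -0.73 without barcodes holding T, NK, B and neutrophil markers, -0.44 without fibroblast-carrying and -1.216 without neutrophil-carrying barcodes. In UEIS LSL the fibroblast list, at 0.4148, was -3.421 weighted by depth, -1.662 with sparse bins joined and -1.813 with the per-10000 limit. The causes were not tested. All 1520 alternative values of named dividing over zero genes kept their direction, as did 379 of 382 of named UEIS KI over UEIS LSL genes, with Col1a1 and Col1a2 as the exceptions. The named genes were chosen from these same data by intervals on 1 side of 1, and those of dividing over zero also by depth weighting. Their kept direction was thus largely set by the choice and is no separate check.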
